A study of Mus musculus with 6 samples.

Results

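Transcripts for antibody chains were measured in mouse T cell cultures through 10 genes, chosen by symbol: the heavy-chain constant genes Ighm, Ighd, Ighg1, Ighg2b, Ighg2c, Ighg3 and Igha, the kappa light-chain constant gene Igkc, and the antibody assembly genes Jchain and Mzb1. They are 10 of the 54532 genes in the expression table, and each was found under its symbol exactly once. Spleen T cells of C57BL/6 mice aged 6 to 8 weeks, isolated with a pan T cell kit, were kept in 10 ng/mL IL-2, activated for 72 h with beads against CD3 and CD28, and placed in culture with ID8, an ovarian cancer line of the mouse. For 3 libraries the tumour cells were first exposed to cisplatin, a platinum drug that cross-links DNA (labelled 40 µM; called cisplatin here), and for 3 they received PBS (labelled WT; called control here), so that activation, IL-2 and contact with the tumour line were shared by both groups. The comparison asks how contact with drug-treated rather than untreated tumour cells was reflected in the RNA of the immune cells. Neither the labels nor the methods say whether the 3 libraries of a group came from separate mice or cultures, so every p-value here measures the spread between these libraries, which may be technical.

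Antibodies are made by B cells and, in quantity, by plasma cells, and T cells do not make them. Each antibody pairs a heavy chain with a kappa or lambda light chain. A naive B cell makes IgM and IgD heavy chains from a single long primary transcript, and after class switch recombination the variable region is joined to a downstream constant gene that encodes IgG, IgE or IgA. Alternative 3′ ends then decide whether the heavy chain carries a membrane anchor or a secretory tail. The J chain links IgM and IgA units into polymers, and Mzb1 is a chaperone of the endoplasmic reticulum that aids assembly of IgM. They are thus marks of the B lineage, whose cells the pan T cell isolation is meant to remove. Which cells of these cultures held the transcripts was not tested.

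The heavy-chain constant genes lie in a single cluster of 8 genes on chromosome 12 of mm10, on the minus strand from 113254830 to 113422730, a stretch of 167901 bases. Read in the direction of transcription, their order is Ighm, Ighd, Ighg3, Ighg1, Ighg2b, Ighg2c, Ighe and Igha. The constant exons end differently in the secreted forms, and the 2 genes whose products bind the J chain can be told from the IgG genes by these coding bases. In the GENCODE annotation of GRCm38, the secreted forms of Ighm and Igha each have a tail of 59 coding bases that their membrane forms lack, printed here in the 5′ to 3′ direction of the gene with the second-to-last codon, a cysteine codon, in capitals. This cysteine is the residue of the tail known to form the bond with the J chain.
Ighm, chr12:113420870-113420928, minus strand: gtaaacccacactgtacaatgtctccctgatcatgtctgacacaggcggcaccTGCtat
Igha, chr12:113258771-113258829, minus strand: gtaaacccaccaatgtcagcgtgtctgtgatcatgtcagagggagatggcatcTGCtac
The 2 tails were identical at 44 of 60 aligned positions (73.3%). The secreted forms of Ighg3, Ighg1, Ighg2b and Ighg2c have only 5 bases (gtaaa) in its place, and none holds such a cysteine codon. The expression table gives 1 value per gene, so secreted and membrane forms were not separated in any value that follows.

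Reads were deposited as FPKM (fragments per kilobase of gene, scaled to the size of the library), which can be compared between genes because it is per length. The reads on genes, rebuilt from these values, ranged from 30606569 to 32169496 per library, and the 10 genes held between 477 reads (Ighg2c) and 199957 reads (Ighm) in a library. They took 0.900% to 0.924% of the reads in the cisplatin libraries and 0.372% to 0.398% in the control libraries. The labelled cell type was supported by its defining markers and was not the only one present. The 16 T cell genes summed to 2284 to 2346 FPKM in the cisplatin and 1414 to 1528 FPKM in the control libraries, and 12 genes of B-lineage identity summed to 432 to 461 and 294 to 313 FPKM. The 14 genes of the ID8 tumour cell list summed to 214 to 220 FPKM with cisplatin and 1529 to 1610 FPKM in the controls, and the 11 macrophage and neutrophil genes summed to 128 to 146 and 65.5 to 70.3 FPKM. No gene of these lists was at 0 in all 6 libraries. In bulk RNA such as this, more cells of a type and more RNA per cell cannot be told apart.

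All 10 antibody genes were higher in the cisplatin libraries, and the 3 values of each group did not overlap for any of them. The increase ranged from 1.21-fold for Ighd to 3.17-fold for Jchain in mean FPKM. In limma on log2(FPKM + 0.1), with Benjamini-Hochberg adjustment over 15874 genes, all 10 passed as higher at a threshold of 0.05, and 6 of them also had a fold change of at least 2. Among all tested genes 27.5% were higher and 29.0% lower at this threshold, 4.11% were higher with a fold change of at least 2, and 31.9% had every cisplatin library above every control library. The median log2 fold change of the 10 genes was 1.03, beside 0.03 over all tested genes.

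**Figure D1:**
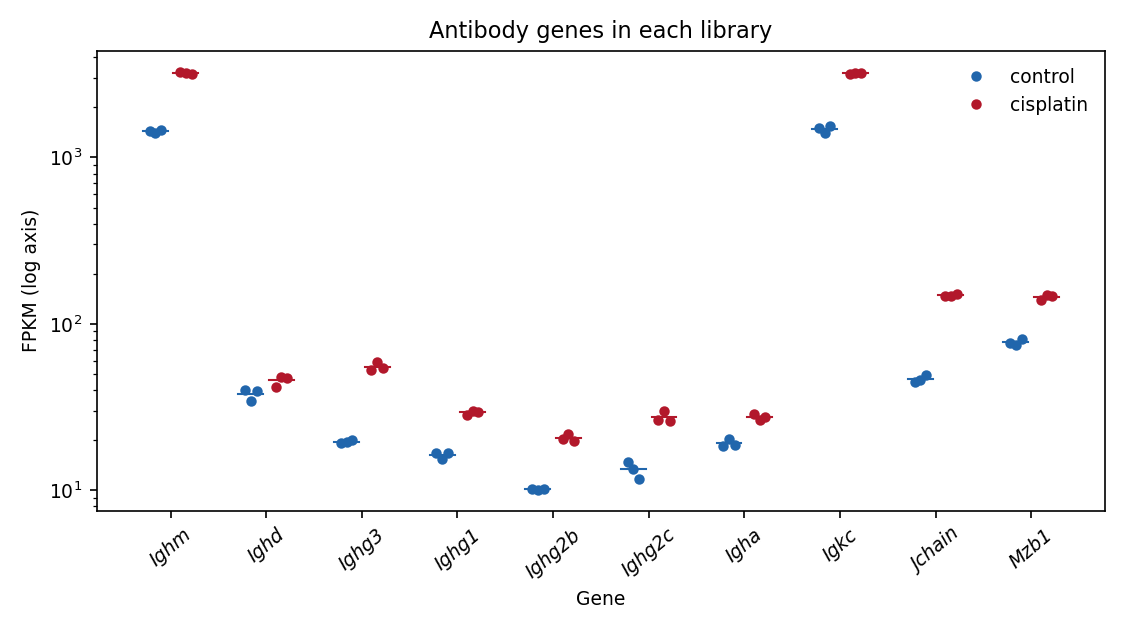
FPKM of the 10 antibody genes (log axis) in the 3 control (blue) and 3 cisplatin (red) libraries; points are libraries and short lines are group means. For every gene the red points lie above the blue ones, most closely for Ighd (41.7 to 48.2 against 34.5 to 39.8 FPKM) and most widely for Jchain (146 to 151 against 44.9 to 49.5 FPKM).

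Ighm (ENSMUSG00000076617), which encodes the heavy chain of IgM, was together with Igkc the most abundant of these transcripts. Its values were 3274, 3199 and 3188 FPKM in the cisplatin libraries and 1437, 1393 and 1468 FPKM in the control libraries. The groups were far apart relative to their spread, and the log2 fold change was 1.17 (SE 0.04, 95% interval 1.07 to 1.27, adjusted p = 1.33e-06 from limma). Ighd, which encodes the IgD heavy chain and is spliced from the same primary transcript, behaved differently in size. It had 41.7, 48.2 and 47.5 FPKM with cisplatin and 39.8, 34.5 and 39.4 FPKM in the controls. The lowest cisplatin library exceeded the highest control library by a small margin, and the log2 fold change was 0.27 (SE 0.08, 95% interval 0.09 to 0.46, adjusted p = 0.0223 from limma). This call was lost when cisplatin replicate 2 (adjusted p = 0.0722), cisplatin replicate 3 (adjusted p = 0.0701) or control replicate 2 (adjusted p = 0.0557) was left out of the limma fit.

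The 4 IgG heavy-chain genes are the main targets of class switching in the mouse, and all 4 were higher with cisplatin. Ighg3, the IgG3 gene and the first of them downstream of Ighd, had 52.7, 58.7 and 54.2 FPKM in the cisplatin and 19.3, 19.4 and 20.1 FPKM in the control libraries. A log2 fold change of 1.49 (SE 0.05, 95% interval 1.37 to 1.60, adjusted p = 8.95e-07 from limma) made it the heavy-chain gene with the largest increase. The other 3 rose less. Ighg2c, the IgG2c gene of C57BL/6 mice, had 26.6, 30.02 and 26.2 FPKM with cisplatin and 14.8, 13.5 and 11.7 FPKM in the controls. Its control values were the most scattered of any of the 10 genes, with a standard deviation of 11.7% of the mean, and its log2 fold change was 1.05 (SE 0.10, adjusted p = 0.00012 from limma). Ighg2b had 20.3, 21.7 and 19.7 against 10.1, 10.1 and 10.1 FPKM (log2 fold change 1.02, SE 0.05, adjusted p = 4.36e-06 from limma). Ighg2b and Ighg2c lay close to the fold threshold of 2 and dropped under it without cisplatin replicate 2, at log2 fold changes of 0.98 each. Both also did so with a pseudocount of 1, and Ighg2c without control replicate 3, at 0.96. Ighg1 had 28.5, 30.02 and 29.7 against 16.8, 15.4 and 16.7 FPKM, a log2 fold change of 0.85 (SE 0.05, adjusted p = 9.47e-06 from limma). These genes resemble each other, with 74.1% to 76.2% identity between their secreted coding sequences and 85.6% between Ighg2b and Ighg2c. Of the stretches of 50 bases in their transcripts, 0.393% (Ighg1) to 5.49% (Ighg2c) also occurred in another gene, and of those of 100 bases none did.

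Igha, the IgA heavy-chain gene and the last of the cluster, was at 28.7, 26.4 and 27.4 FPKM with cisplatin and 18.5, 20.2 and 18.8 FPKM in the control libraries. The groups were separate, and the log2 fold change was 0.52 (SE 0.05, 95% interval 0.40 to 0.64, adjusted p = 0.000148 from limma). Ighe, which encodes the heavy chain of IgE and was not among the 10 genes, had only 6, 2 and 6 rebuilt reads with cisplatin and 0, 3 and 2 in the controls. It was too low to test and no fold change is given. The size of the increase did not follow position along the cluster. The smallest, that of Ighd, and the largest, that of Ighg3, belonged to neighbouring genes whose 5′ ends lie 6406 and 61498 bases downstream of that of Ighm.

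Igkc (ENSMUSG00000076609), the constant gene of the kappa light chain on chromosome 6 from 70726435 to 70726966 of mm10, had 3176, 3221 and 3196 FPKM in the cisplatin libraries. In the control libraries it had 1510, 1410 and 1548 FPKM. Every cisplatin library was above every control library, and the log2 fold change was 1.10 (SE 0.05, 95% interval 0.99 to 1.22, adjusted p = 3.61e-06 from limma). The lambda constant genes, which encode the alternative light chain, were higher as well. Iglc1 averaged 275 ± 0.996 against 113 ± 10.4 FPKM (SD, n = 3). The log2 fold changes were 1.29 for Iglc1, 1.25 for Iglc2 and 1.20 for Iglc3, with adjusted p-values from limma of 6.35e-06, 1.48e-05 and 2.22e-06.

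Jchain (ENSMUSG00000067149), the gene of the joining chain on chromosome 5 from 88519809 to 88527891 of mm10, changed most among the 10 genes. It had 146, 148 and 151 FPKM in the cisplatin libraries and 44.9, 46.0 and 49.5 FPKM in the control libraries. The groups differed by a log2 fold change of 1.66 (SE 0.04, 95% interval 1.56 to 1.76, adjusted p = 3.61e-07 from limma). Mzb1, the chaperone gene, had 139, 148 and 147 FPKM with cisplatin against 77.0, 75.1 and 81.7 FPKM in the controls. Its groups were also separate, with a log2 fold change of 0.89 (SE 0.04, 95% interval 0.79 to 0.99, adjusted p = 5.35e-06 from limma). The value of Mzb1 is less certain than the others. Of its stretches of 50 bases, 53.5% also occurred in transcripts annotated as SPATA24, whose exons overlap those of Mzb1 on the same strand. How the authors treated reads that fit both is not given in the sources used here.

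The order of the levels differed between the groups. In the cisplatin libraries Ighm and Igkc came first and their ranges overlapped, Jchain and Mzb1 came next with overlapping ranges, and Ighg3 and Ighd followed, each separated from its neighbours. Ighg1, Ighg2c and Igha overlapped in turn, and Ighg2b was lowest. In the control libraries Igkc and Ighm again overlapped at the top. Mzb1 (77.9 ± 3.36 FPKM, SD, n = 3) was there separated from Jchain (46.8 ± 2.41 FPKM, SD, n = 3), which was above Ighd. Ighg3 (19.6 ± 0.433 FPKM, SD, n = 3) stood below Ighd and overlapped with Igha, whereas with cisplatin it stood above both.

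Because every antibody gene moved in the same direction, the fold changes were also computed relative to other genes of the same libraries. Centring subtracts a single constant from the log2 values of a library, so it shifts all fold changes by the same amount and leaves their order as it was. Centring each library on the mean log2 value of the 12 B-lineage identity genes asks whether an antibody gene changed more than the B-lineage genes as a whole. On this scale 8 of the 10 genes passed limma's threshold of 0.05 as higher and none as lower, where 7.85% of all tested genes were higher and 51.8% lower. The median log2 fold change was 0.65 for the 10 genes and -0.36 over all genes. Jchain kept 1.28, Ighg3 1.10, Ighm 0.78 and Igkc 0.72 on the log2 scale. Thus 2 genes, Jchain and Ighg3, remained at a fold change of at least 2. Of all 15874 tested genes, 231 were higher at this fold change. Igha was at 0.13 (adjusted p = 0.167) and Ighd turned to -0.11 (adjusted p = 0.166 from limma). Neither of these passed the threshold. The B-lineage genes themselves ranged widely, from -1.06 for Fcer2a to 0.96 for Ms4a1 in log2 fold change on the deposited scale, and this centring rests on their mean.

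Centring on the 16 T cell genes, which were all higher on the deposited scale (median log2 fold change 0.60), asks the same relative to the labelled cell type. On this scale 8 of the 10 genes again passed in limma as higher and 1 as lower, where 4.50% of all tested genes were higher and 66.7% lower, with a median of -0.56 over all genes. Jchain was at 1.07, the only one at a fold change of at least 2, and Ighg3 was at 0.90. Of all 15874 tested genes, 137 were higher by at least 2-fold on this scale. Ighd fell by 0.32 on the log2 scale (adjusted p = 0.00748 from limma) and Igha was at -0.07 (adjusted p = 0.302). Quantile normalization, which gives all libraries the same distribution, left all 10 genes higher, beside 5884 of all 15874 tested genes. It lowered Ighm to 0.51 and Igkc to 0.54, which left 4 genes at a fold change of at least 2. Among all tested genes 979 were higher at this fold change. The cause of the lowering was not tested. On the deposited scale 27.5% of all tested genes were higher and 29.0% lower. There the T cell list moved in the direction of the antibody genes (16 of 16 higher). So did the macrophage and neutrophil list (7 of 9 higher and 1 lower). The ID8 list moved the other way (11 of 12 tested genes lower). The part of these lists in the changes on the deposited scale was not tested.

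**Figure D2:**
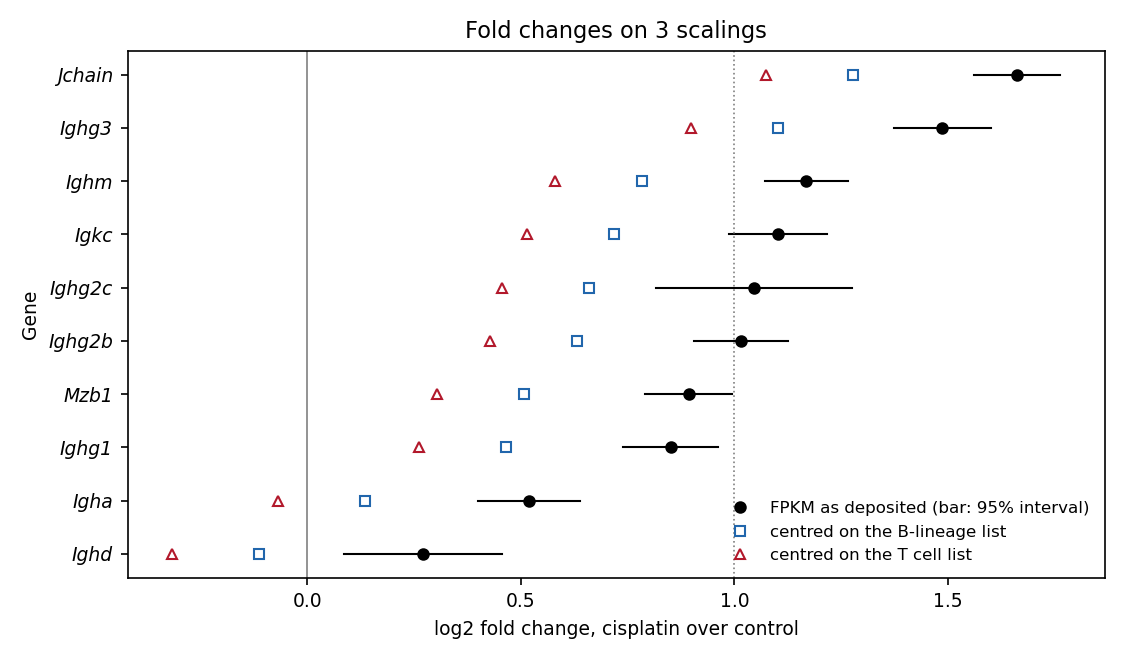
Log2 fold change of each antibody gene, cisplatin over control, on the deposited FPKM (black, with 95% intervals from limma) and after centring on the B-lineage (blue squares) or T cell (red triangles) list; the dotted line marks a fold change of 2. Either centring shifts all genes equally, with Jchain (1.66, 1.28 and 1.07) at the top and Ighd (0.27, -0.11 and -0.32) at the bottom, on the far side of 0 after either centring.

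Shares and ratios within a library do not depend on the scaling between libraries. Ighm made up 94.3%, 93.7% and 94.0% of the summed heavy-chain FPKM in the cisplatin libraries and 92.3%, 92.5% and 92.6% in the control libraries. The 2 groups did not overlap, and the difference was 1.502 percentage points (two-sided exact permutation test, p = 0.1, and 0.12 after adjustment over 12 shares). With 3 against 3, this test cannot give less than 0.1. No share or ratio can therefore pass 0.05 under this test, and the values are described by whether the groups overlap. The share of Ighd went the other way, with 1.20%, 1.41% and 1.40% against 2.56%, 2.29% and 2.49%. With Ighd left out of the sum, the difference in the Ighm share was 0.456 percentage points.

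The genes of switched classes, from Ighg3 to Igha, together made up 4.52%, 4.89% and 4.64% of the heavy-chain FPKM with cisplatin and 5.11%, 5.22% and 4.89% in the controls. The highest cisplatin library and the lowest control library differed only slightly (4.89% in both after rounding), and the difference of the means was -0.39 percentage points. Within the switched classes the genes did not move alike. The share of Ighg3 was higher with cisplatin (1.61% ± 0.102 against 1.27% ± 0.0246, SD, n = 3), and those of Ighg1 (0.859% ± 0.0321 against 1.05% ± 0.0281) and Igha (0.803% ± 0.0269 against 1.24% ± 0.0890) were lower, each with no overlap between the groups. Among the 4 IgG genes alone, Ighg3 accounted for 41.1%, 41.8% and 41.8% with cisplatin and 31.6%, 33.3% and 34.2% in the controls. The IgG share of Ighg1 fell from 27.4% ± 1.07 to 22.2% ± 0.762 (SD, n = 3) with no overlap. That of Ighg2c overlapped between the groups (20.8% ± 0.605 against 22.5% ± 2.25, two-sided exact permutation p = 0.4).

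Ratios to Ighm separated the assembly genes. The log2 ratio of Jchain to Ighm was -4.48, -4.43 and -4.40 in the cisplatin libraries and -5.00, -4.92 and -4.89 in the control libraries, so Jchain stood 1.41-fold higher relative to Ighm with cisplatin. The log2 ratio of Mzb1 to Ighm was -4.55, -4.43 and -4.44 against -4.22, -4.21 and -4.17, which is 0.826 times the control ratio. Jchain thus outpaced Ighm and Mzb1 lagged behind it, and neither ratio overlapped between the groups. The ratio of Ighd to Ighm with cisplatin was 0.537 times that of the controls (log2 ratios -6.29, -6.05 and -6.07 against -5.17, -5.33 and -5.22), again without overlap. These 3 ratios each gave p = 0.1 in the two-sided exact permutation test and 0.12 after adjustment over 6 ratios.

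The chains of the antibody stayed closer to each other. The ratio of Igkc to the summed heavy chains was 0.933 with cisplatin and 0.961 in the controls, and the groups overlapped (difference of the log2 ratios -0.04, two-sided exact permutation p = 0.3). The ratio of Igkc to the summed lambda genes was 6.16 with cisplatin and 6.91 in the controls, with log2 ratios of 2.65, 2.62 and 2.60 against 2.91, 2.75 and 2.71 and no overlap. The difference of these log2 ratios was -0.17, and it was -0.11 without control replicate 1. Relative to the geometric mean of the B-lineage identity genes, Ighm stood at 183 times with cisplatin and 106 times in the controls, a 1.72-fold difference with no overlap.

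**Figure D3:**
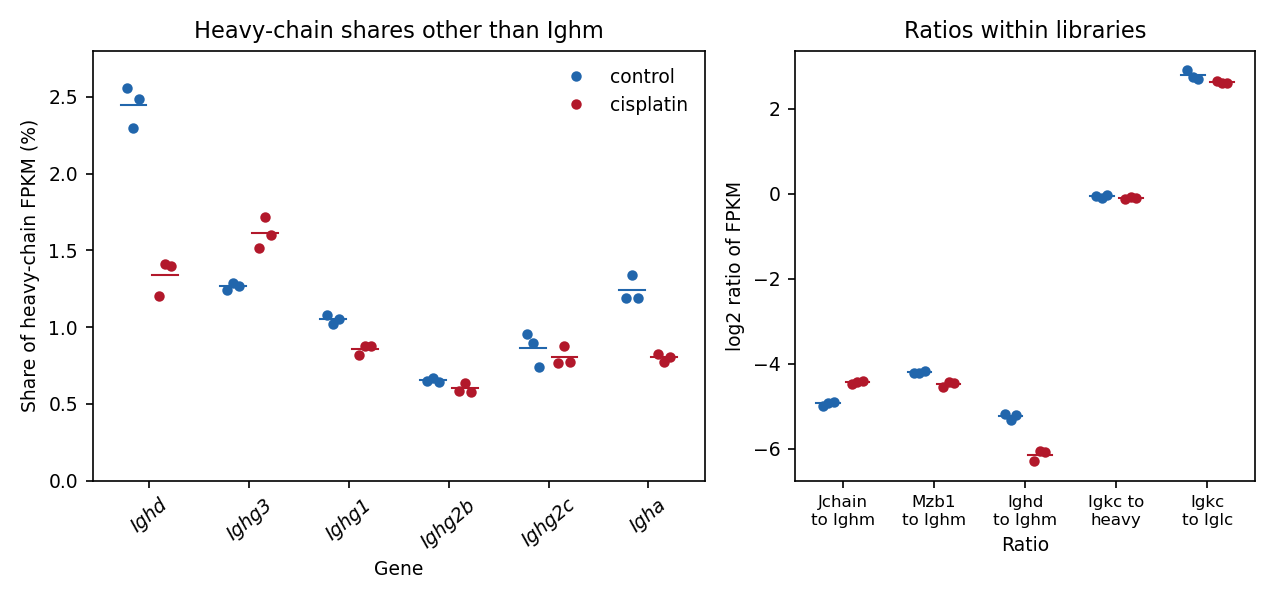
Left, share of the summed heavy-chain FPKM (%) of each heavy-chain gene other than Ighm; right, log2 ratios of FPKM within libraries; points are the 3 control (blue) and 3 cisplatin (red) libraries and lines are group means. The share of Ighg3 is higher with cisplatin and those of Ighd, Ighg1 and Igha are lower, the Jchain to Ighm ratio is higher, the Mzb1 and Ighd to Ighm ratios are lower, and the Igkc to heavy-chain ratio overlaps.

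Other genes of the antibody pathway were followed through lists. Of the 12 B-lineage identity genes, 10 were higher and 1 was lower in limma (adjusted p under 0.05), beside 27.5% and 29.0% of all genes, and the median log2 fold change was 0.41. After centring on the T cell list 3 were higher and 5 lower with a median of -0.18, where all genes gave 4.50% and 66.7%. Ms4a1, a membrane protein of mature B cells, averaged 26.3 ± 0.616 against 13.5 ± 1.12 FPKM (SD, n = 3; log2 fold change 0.96). Cd79a, which encodes the signalling chain that carries membrane immunoglobulin, rose by 0.38 on the log2 scale and was at -0.0035 after centring on the B-lineage list. Fcer2a, the low-affinity IgE receptor of resting B cells, was the 1 lower gene (1.41 ± 0.238 against 3.08 ± 0.703 FPKM, SD, n = 3).

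Of 9 tested plasma cell factors and surface genes, 6 were higher and 2 lower in limma (adjusted p under 0.05), with a median log2 fold change of 0.50, beside 27.5% higher and 29.0% lower over all genes. After centring on the B-lineage list 4 were higher and 3 lower, where all genes gave 7.85% and 51.8%, and after centring on the T cell list 3 were higher and 3 lower with a median of -0.08, where all genes gave 4.50% and 66.7%. Irf4, a transcription factor needed for plasma cell formation that activated T cells also express, had 30.7, 30.4 and 31.5 FPKM with cisplatin and 14.9, 15.6 and 16.4 FPKM in the controls (log2 fold change 0.98). Pou2af1, a co-activator of immunoglobulin genes, had 67.1 ± 2.05 against 35.0 ± 1.58 FPKM (SD, n = 3; log2 fold change 0.94). The genes of this list did not all move together. Prdm1, the plasma cell repressor also known as Blimp-1, had a log2 fold change of 0.40 that became 0.01 after centring on the B-lineage list and -0.19 after centring on the T cell list (adjusted p = 0.0925 from limma). Xbp1, which drives expansion of the secretory pathway, was lower (51.9 ± 1.19 against 60.7 ± 2.64 FPKM, SD, n = 3; log2 fold change -0.22). Sdc1, a plasma cell surface proteoglycan that epithelial cells also carry, fell by 1.64 on the log2 scale, from 29.7 ± 1.78 to 9.45 ± 1.003 FPKM (SD, n = 3). Tnfrsf17, the plasma cell receptor BCMA, had 8, 2 and 6 rebuilt reads with cisplatin and 0, 0 and 2 in the controls and was not tested.

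Of 14 tested genes of class switch recombination, 2 were higher and 5 lower in limma (adjusted p under 0.05), beside 27.5% and 29.0% of all tested genes. Their median log2 fold change was -0.05, close to the 0.03 over all genes. The higher genes were Batf, a transcription factor that activated T cells use as well (log2 fold change 0.97), and Apex1, a repair endonuclease (0.63). After centring on the B-lineage list 1 gene was higher and 8 lower, where all genes gave 7.85% and 51.8%. After centring on the T cell list the counts were 1 and 11, where all genes gave 4.50% and 66.7%. Batf passed on both scales and Apex1 on neither (adjusted p = 0.0701 and 0.67 from limma). Among the 6 tested helper T cell signals for switching, 2 were higher and none lower on the deposited scale, Tgfb1 (0.52) and Icos (0.53). After centring on the B-lineage list they were at 0.14 (adjusted p = 0.0425 from limma) and 0.15 (adjusted p = 0.0435 from limma), and both passed. After centring on the T cell list they were at -0.06 (adjusted p = 0.165 from limma) and -0.05 (adjusted p = 0.292 from limma), and neither passed. Il13, Il21, Il5 and Ifng of that list were under the filter of 0.5 FPKM.

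Folding and secretion genes of the endoplasmic reticulum were mostly higher by small amounts. Of 19 tested, 14 were higher and 1 lower in limma (adjusted p under 0.05) on the deposited scale, beside 27.5% and 29.0% of all tested genes. Their median log2 fold change was 0.42. After centring on the B-lineage list 3 were higher and 6 lower (median 0.03), and after centring on the T cell list 2 were higher and 11 lower (median -0.17). Among all tested genes 7.85% were higher and 51.8% lower after the first centring, and 4.50% and 66.7% after the second. Txndc5, a disulfide isomerase abundant in plasma cells, had 62.6 ± 0.828 against 37.8 ± 0.575 FPKM (SD, n = 3; log2 fold change 0.73), and Sec11c, a subunit of the signal peptidase, had 41.0 ± 1.51 against 23.0 ± 1.18 FPKM (SD, n = 3; 0.84). Both remained above 0 under every scaling tried. Hspa5, the chaperone BiP that holds free heavy chains, was the 1 lower gene, at 111 ± 1.18 against 136 ± 2.01 FPKM (SD, n = 3; log2 fold change -0.29).

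**Figure D4:**
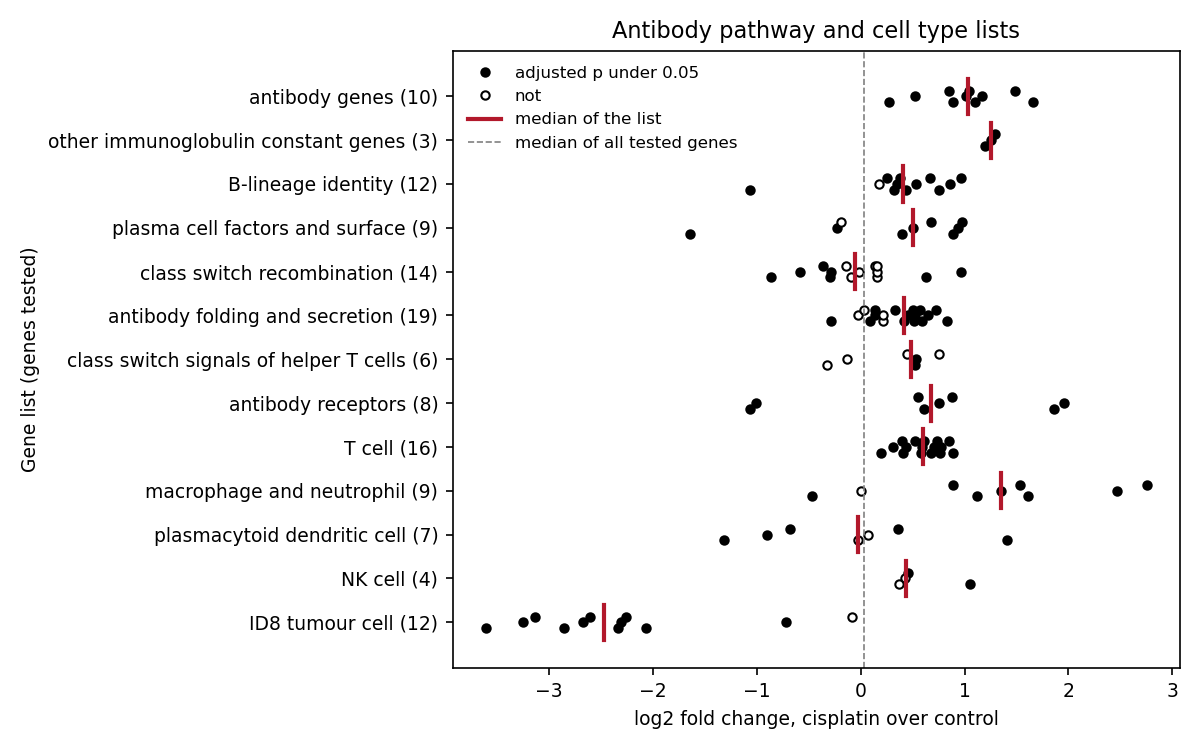
Log2 fold change, cisplatin over control, of each tested gene in 13 lists (rows, with the number tested); filled points passed limma's threshold of 0.05, red bars are list medians and the dashed line is the median of all tested genes. The antibody genes (median 1.03) and the lambda constant genes (1.25) lie to the right of the B-lineage identity (0.41), plasma cell (0.50), folding (0.42) and class switch (-0.05) lists. They also lie to the right of the antibody receptor (0.68) and T cell (0.60) lists, and the macrophage and neutrophil list (1.35) lies further right.

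The genes whose pattern over the 6 libraries was most like that of Ighm were Gm43305, Ighv3-6, Serpina3g, Iglc3 and Gm8995, with a root mean square difference of 0.0325 to 0.0556 in centred log2(FPKM + 0.1) among 8412 genes of at least 5 FPKM. Of these, Ighv3-6 is a heavy-chain variable segment and Iglc3 a lambda constant gene. Ighv3-6 had a mean of 86.4 FPKM with cisplatin and 37.6 FPKM in the controls. Those most like Jchain were Abcg1, Abcb1b, Cd180, Myb and Cd300lf, with differences of 0.0437 to 0.0977. Abcg1, a cholesterol exporter, had a mean of 63.5 FPKM with cisplatin and 20.5 FPKM in the controls. The genes matched to Ighm had log2 fold changes of 1.072 to 1.2, beside 1.17 for Ighm. Those matched to Jchain had 1.565 to 1.727, beside 1.66 for Jchain. The measure thus mainly matched genes by fold change between the groups, and shared regulation was not tested.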

How the data were processed

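RNA was purified with poly-T beads and sequenced from 6 libraries, 3 per group, grouped by the sample labels, which give no batch. The authors deposited FPKM, that is counts per gene divided by gene length and a library factor. The submitters' processing notes name fastp, HISAT2 2.0.5, featureCounts 1.5.0-p3 and mm10, whereas the paper's methods name LifeScope for alignment and counting and DESeq2 on raw counts for testing. The treatment of strand and of reads matching several genes, and the read length, are not given in the sources used here. Gene coordinates equalled GENCODE M21 (GRCm38) for 53499 of 54409 shared genes and 9 of the 10 antibody genes. The authors' own fold changes were not used, and the table held 0 further columns of samples.

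Whole reads were rebuilt from FPKM, gene length and the step of each library (100% of values within 0.1 of a whole read). They give the depth, cover counting error only, and set a floor of 3 reads. Replicates differed by more than sampling noise (chi-square per degree of freedom 5.35 to 6.44). The main test was limma 3.58.1 (R 4.3.3; lmFit, eBayes with trend) on log2(FPKM + 0.1) for the 15874 genes that averaged 0.5 FPKM or more, with Benjamini-Hochberg adjustment; fold changes on this scale understate changes of low genes. Shares and ratios were compared by two-sided exact permutation tests (scipy 1.17.1). The 10 genes, the lists (152 genes, 1 absent from the table) and the tests were chosen with earlier results of these data known. Genes named are the 10, any list gene, and the 5 most like Ighm and the 5 most like Jchain. Values of certain list genes are not reported here.

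Alternatives were pseudocounts of 1 and 0.01, a filter of 5 FPKM or none, median-of-ratios, quantile, T cell, B-lineage and rebuilt-read scalings, no variance trend, limma's voom on rebuilt reads (at least 10 in at least 3 libraries), the replicate number as a block, leaving out each library, and, for shares and ratios, rebuilt reads, a pseudocount and leaving out Ighd. Identical sequence stretches and secretory tails were read from the GENCODE M21 transcripts.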

Additional observations from a re-analysis of the deposited data

How the results depend on the processing

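All 10 antibody genes passed limma's threshold of 0.05 as higher under 13 of 18 alternatives. These included voom on the rebuilt reads, quantile normalization and every pseudocount and filter. Among all tested genes 4360 of 15874 were higher in the main fit, 5884 of 15874 under quantile normalization and 5879 of 18541 with voom. The number of antibody genes was 8 after centring on the T cell or the B-lineage list, where Ighd and Igha were lost. It was 9 without cisplatin replicate 2, cisplatin replicate 3 or control replicate 2, where Ighd was lost. All tested genes gave 715 and 1246 higher after these centrings, and 3773, 3787 and 3953 without those libraries in turn. The number of antibody genes with a fold change of at least 2 was 6. It was 1 after centring on the T cell list and 2 after centring on the B-lineage list. It was 4 with a pseudocount of 1, under quantile normalization or without cisplatin replicate 2, and 5 without control replicate 3. All tested genes gave 653 higher at this fold change, and 137 and 231 after the T cell and B-lineage centrings. They gave 311 with the pseudocount of 1, 979 under quantile normalization, 570 without cisplatin replicate 2 and 693 without control replicate 3. Ighd was at -0.32 and -0.11 and Igha at -0.069 and 0.13 in log2 fold change under these 2 centrings, so Ighd reversed under both and Igha under the first. Leaving out a library gave log2 fold changes of 0.21 to 0.34 for Ighd and 1.63 to 1.70 for Jchain. Without Ighd in the sum the Ighm share differed by 0.456 rather than 1.502 percentage points, which follows from leaving out a gene whose share was lower with cisplatin. No share or ratio that separated the groups changed direction. The same-numbered libraries did not deviate together (correlations across genes of 0.0229, -0.063 and -0.0207), so the numbers were not taken as pairs; with the replicate block 10 genes were still higher and 6 had a fold change of at least 2 (Ighd at adjusted p = 0.0489 from limma). With 3 libraries a group, permutation tests cannot go below 0.1, and genes near the floor of 3 reads, such as Ighe, cannot be compared at this depth.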

Other observations

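Genes for antibody receptors were described beside the antibody genes. Of 8 tested, 6 passed limma's threshold of 0.05 as higher and 2 as lower, with a median log2 fold change of 0.68. The counts were 6 and 2 after centring on the B-lineage list. After centring on the T cell list they were 3 and 2, and the median was 0.09. Among all tested genes 27.5% were higher and 29.0% lower on the deposited scale. These shares were 7.85% and 51.8% after the first centring and 4.50% and 66.7% after the second. Fcgr1, the high-affinity IgG receptor of macrophages, had 1.64, 1.24 and 1.36 FPKM with cisplatin and 0.206, 0.283 and 0.390 FPKM in the controls (log2 fold change 1.96, adjusted p = 0.000958 from limma). Fcgr4 had a log2 fold change of 1.86 and control values of 1.25, 1.301 and 0.597 FPKM. Fcmr, the receptor for IgM, had 27.9 FPKM on average with cisplatin and 19.0 FPKM in the controls, and its log2 fold change of 0.55 became -0.04 after centring on the T cell list (adjusted p = 0.526 from limma). The lower genes were Fcer2a (-1.06) and Fcgrt, the neonatal Fc receptor that protects IgG from degradation (-1.004). Of 9 tested macrophage and neutrophil markers, 7 were higher and 1 lower, with a median log2 fold change of 1.35. This list moved with these receptors, and its part in them was not tested. S100a8 and S100a9 of this list were under the filter of 0.5 FPKM and were not tested.

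The remaining lists were small. Of 7 tested plasmacytoid dendritic cell genes 2 were higher and 3 lower (median -0.03), and of 4 tested NK cell genes 2 were higher and none lower (median 0.44). Among all tested genes 27.5% were higher and 29.0% lower. Of 2 tested genes of the surrogate light chain and pre-B list, Dntt was lower (0.373 against 1.62 FPKM on average). Vpreb3 did not pass (log2 fold change 0.26, adjusted p = 0.0506 from limma). Rag1 and Rag2 had at most a few reads in any library.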
